A study of Mus musculus with 19 samples.

Results

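Transcripts of gastrocnemius, a calf muscle, were compared between the first day of weight regain and weight loss maintenance in mice that overexpress lipoprotein lipase in muscle. The mCK-hLPL_REL group held muscle of FVB mice of the mCK-hLPL genotype taken after 24 hours of refeeding (5 libraries), and mCK-hLPL_WLM held muscle of FVB mice of the same genotype taken during weight loss maintenance without refeeding (5 libraries). These 10 libraries of 19 in all were chosen by their column names. The other 9, used only to set the same refeeding difference beside its counterpart without the transgene, were muscle of wild-type FVB mice: 4 libraries of WT_REL, after the same refeeding, and 5 of WT_WLM. The columns of 2 WT_REL libraries carry no replicate number that the labels hold, and they are called A and B. In the text below REL and WLM with no genotype mean the 2 mCK-hLPL groups. The name mCK-hLPL denotes a human lipase transgene driven by the promoter of muscle creatine kinase (mCK), which acts in muscle fibres; that the mCK-hLPL libraries carry it was taken from the labels. The labels give neither age nor sex nor how the weight was lost, and whether libraries come from separate animals is not stated. P-values therefore measure only the spread between these samples, which may be technical.

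Lipoprotein lipase releases fatty acids from circulating triglyceride so that muscle can burn or store them. In fasted muscle, transcripts for fatty acid oxidation and for protein breakdown are held up by nuclear receptors, glucocorticoids and FOXO factors, which insulin opposes after a meal. Refeeding with carbohydrate activates SREBP-1 and the carbohydrate response factor ChREBP, which switch on fatty acid synthesis, whereas SREBP-2 governs cholesterol synthesis and uptake. SREBP factors bind promoters together with NF-Y, whose site is the CCAAT box.

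Total counts ran from 35595030 to 50558640 in REL and from 44154004 to 49324746 in WLM (5 libraries each). Values are CPM, a gene's counts relative to the TMM-scaled size of its library, given in the order of replicate numbers 1 to 5. Changes are log2 differences of REL minus WLM ± SE from edgeR's quasi-likelihood test, called where the Benjamini-Hochberg adjusted p over all genes was under 0.05. CPM does not correct for transcript length, so levels of different genes are not compared. In bulk muscle, fewer cells of a type and less RNA per cell cannot be told apart. Defining muscle transcripts were abundant in every library: the 16 skeletal muscle markers summed to between 158101 and 225097 CPM in REL and between 195391 and 228479 CPM in WLM. Of these 16 markers 3 were called lower in REL and 0 higher (median -0.20), beside 4.03% of all genes tested called lower. Scaled to total counts alone, without TMM, 1 was called higher and 0 lower (median 0.02). The falls numbered 0 to 5 with 1 library left out. WLM 3 was rich in B and T cell markers, called lymph node transcripts below, although their source was not tested. These 15 markers summed to 81.2 CPM in WLM 3, against 13.7 to 22.7 CPM in the other 9 libraries. Liver markers (15 members) summed to between 71.7 and 298 CPM in REL and between 42.2 and 115 CPM in WLM, highest in REL 5 and REL 4, and albumin (Alb) was at 1.31, 3.27, 5.61, 49.2 and 98.3 CPM in REL, against 2.77, 0.952, 3.58, 20.9 and 5.72 CPM in WLM. Hemoglobin transcripts were at 11531 CPM in REL 1 and between 1758 and 3917 CPM in the other REL libraries, against 863 to 3078 CPM in WLM. Their part in the results was not tested, except where a count is given without the 3 libraries of 19 richest in lymph node transcripts (WLM 3, WT_WLM 1 and WT_WLM 5) or in liver transcripts (REL 4, REL 5 and WT_REL B).

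Of 17028 genes tested, 1387 differed between REL and WLM: 700 were higher in REL (4.11% of genes tested) and 687 lower (4.03%), and 4162 passed 0.05 before adjustment. Most changes were small, with a median size of 0.45 on the log2 scale among the calls, and rises reached further than falls: 144 called genes were more than 2-fold higher and 32 more than 2-fold lower, while 29 were more than 4-fold higher and 1 was more than 4-fold lower. The REL and WLM values of 547 genes did not overlap with REL on top (3.21%) and those of 571 did not overlap with REL below (3.35%). Scaling to total counts alone, without TMM, shifted the median change of all genes upward by 0.23 and gave 3941 calls, 3798 higher and 143 lower, so rises and falls here are relative to the bulk of genes. The split between rises and falls therefore rests on the scaling. The call count was 678 without REL 2, 796 without REL 3, 776 without WLM 2, 674 without WLM 3 and 778 without WLM 5, and between 967 and 1705 without any 1 other library. Without the 3 lymph node libraries 608 genes were called, and without the 3 liver libraries 1573. Where a list below has few calls, its counts are to be read beside the 4.11% and 4.03% of all genes tested.

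**Figure D1:**
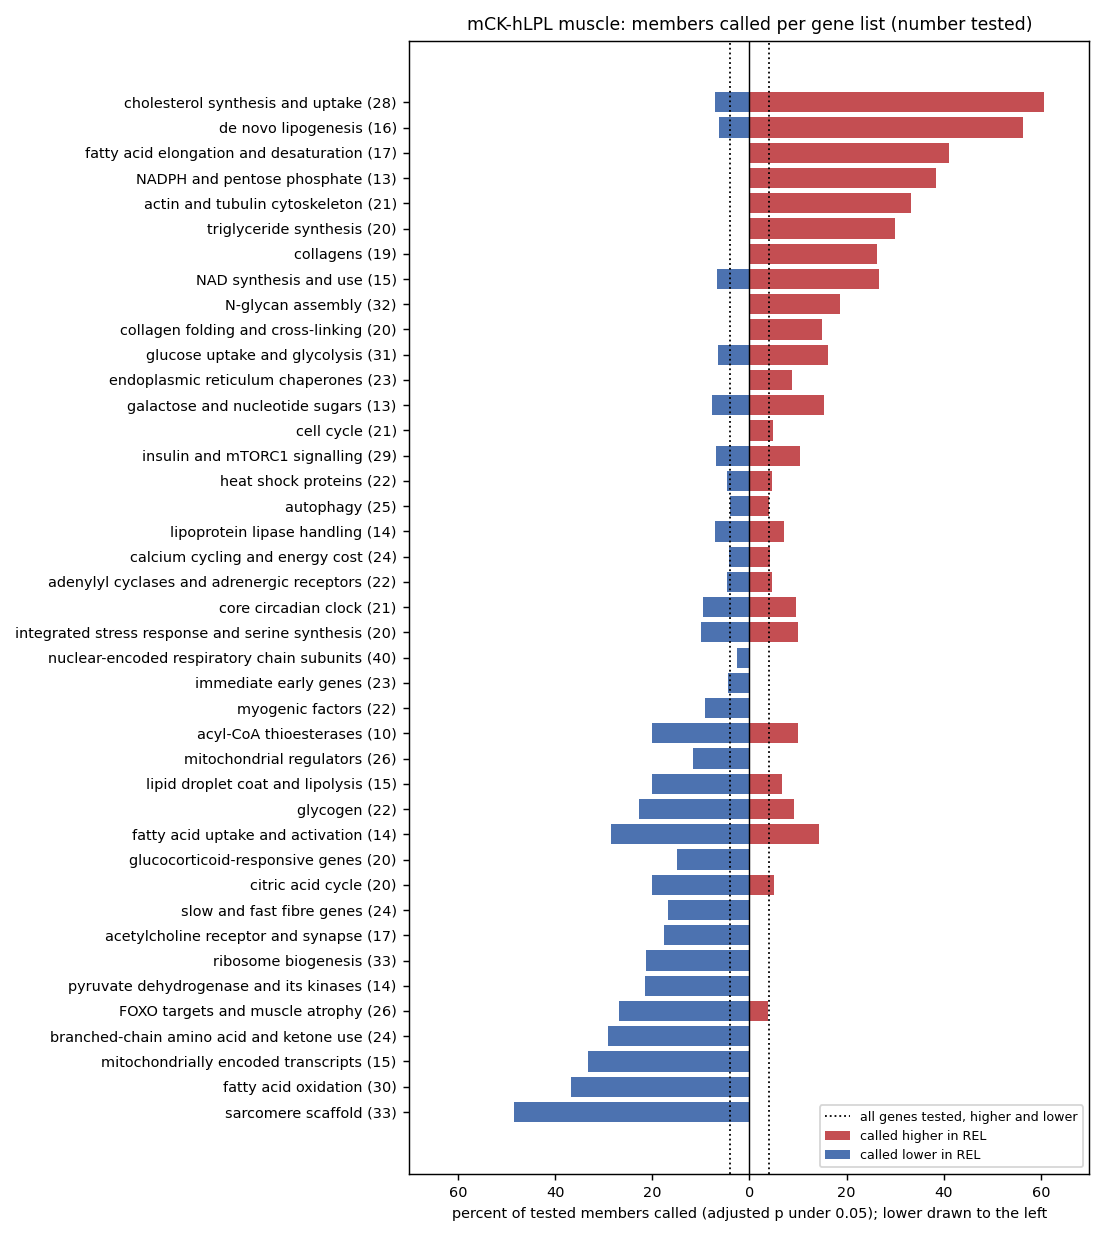
Percent of tested members called higher (red, to the right) or lower (blue, to the left) in REL, for each list of pathway genes with at least 1 call; the number tested stands in brackets and dotted lines mark the 4.11% and 4.03% of all genes tested that were called higher and lower. Cholesterol synthesis and de novo lipogenesis sit at the top and fatty acid oxidation and the sarcomere scaffold at the bottom.

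Cholesterol synthesis genes rose together in REL. Of 28 tested members of synthesis and uptake, 17 rose and 2 fell, with a median change of 0.43 against 0.01 over all genes; the rises numbered 14 without the 3 libraries richest in lymph node transcripts and 15 without the 3 richest in liver transcripts. Nsdhl, a sterol C4 demethylase subunit (chromosome X, 72918557 to 72958514, plus strand, GRCm38), was at 5.51, 10.4, 10.7, 7.91 and 9.47 CPM in REL, against 3.83, 3.89, 4.08, 3.48 and 3.84 CPM in WLM. All REL values lay above all WLM values, and the change was 1.20 ± 0.14 (adjusted p = 0.000164). Sqle, squalene epoxidase, the entry to the sterol branch, was at 1.84, 2.46, 3.31, 1.45 and 2.22 CPM in REL, against 0.731, 0.515, 0.638, 0.463 and 0.633 CPM in WLM. Its groups did not overlap either, and the change was 1.91 ± 0.24 (adjusted p = 0.000294). Dhcr7, which makes cholesterol from 7-dehydrocholesterol, rose by 0.76 ± 0.09 (adjusted p = 0.000261), with 9.37 CPM in the lowest REL library and 7.35 CPM in the highest WLM library. Insig1, the sterol-sensing brake that SREBP itself induces, rose by 1.10 ± 0.18 (adjusted p = 0.00174), Idi1, an isoprenoid isomerase, by 0.63 ± 0.11 (adjusted p = 0.002), and Cyp51, lanosterol demethylase, by 0.80 ± 0.14 (adjusted p = 0.00223).

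Not every step of the pathway passed the test. Srebf2, the factor that governs the pathway, had a change of 0.24 (adjusted p = 0.0691), and Srebf1, the lipogenic form, one of -0.05 (adjusted p = 0.875). The 2 members called lower were Fdft1, squalene synthase, with a change of -0.37 ± 0.10 (adjusted p = 0.0291), and Hsd17b7, a keto reductase of the sterol branch, with a change of -0.47 ± 0.13 (adjusted p = 0.0306); both lie in the same pathway as the rises. Fdft1 lost its call without REL 2, REL 3, WLM 2, WLM 3 or WLM 5 (adjusted p up to 0.0949), and Hsd17b7 lost its call without REL 2, REL 3, REL 5, WLM 2, WLM 3 or WLM 4 (adjusted p up to 0.0974). The count of falls was 0 without REL 2, REL 3, WLM 2 or WLM 3 and 1 without REL 5, WLM 4 or WLM 5.

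The promoters of these genes were read from RefSeq on GRCm38.p6, as 250 bases before to 50 after each start, to show the sites that NF-Y and SREBP are known to bind. Promoters matched for 12 of the 17 cholesterol genes that rose, and 11 of the 12 held a CCAAT box (CCAAT or, on the other strand, ATTGG); among the 9 lipogenesis genes that rose, all with a promoter, 8 held one. Called or not, 90.5% of 21 cholesterol genes and 71.4% of 14 lipogenesis genes with a promoter held one. The box lay in 42.0% of 11802 tested genes with a promoter, in 47.4% of those called higher and in 43.8% of those called lower. The SREBP site TCACNCCAC, searched on both strands, was in 1.36% of tested genes, in 1.32% of those called higher and in 2.01% of those called lower. Among the genes that rose, 1 of the 12 cholesterol genes (Hmgcs1) and 1 of the 9 lipogenesis genes (Mlxipl) held it. The 4 motifs searched were the CCAAT box, the SREBP site, the E-box CACGTG (11.2% of tested genes) and the FOXO site GTAAACA (3.25%), each on both strands. The following 5 windows were picked after the search because they hold 1 or both sites and lie before genes called higher, each written 5′ to 3′ on the gene's strand, with CCAAT boxes and the SREBP site of either strand in capitals. A match is a description of letters and not evidence of binding.
Nsdhl (chrX:72918271-72918570, plus strand): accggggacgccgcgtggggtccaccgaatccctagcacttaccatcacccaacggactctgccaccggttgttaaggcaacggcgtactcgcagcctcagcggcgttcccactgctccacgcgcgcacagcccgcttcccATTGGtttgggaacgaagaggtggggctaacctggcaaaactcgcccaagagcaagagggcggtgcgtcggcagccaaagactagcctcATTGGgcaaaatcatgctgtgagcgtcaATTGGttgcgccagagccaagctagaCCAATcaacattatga
Insig1 (chr5:28071162-28071461, plus strand): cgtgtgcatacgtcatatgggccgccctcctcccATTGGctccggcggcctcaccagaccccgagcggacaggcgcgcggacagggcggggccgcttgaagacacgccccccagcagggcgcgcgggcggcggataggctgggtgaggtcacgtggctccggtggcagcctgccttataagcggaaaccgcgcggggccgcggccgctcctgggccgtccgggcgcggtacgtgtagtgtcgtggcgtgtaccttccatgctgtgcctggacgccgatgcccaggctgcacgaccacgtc
Hmgcs1 (chr13:119690101-119690400, plus strand): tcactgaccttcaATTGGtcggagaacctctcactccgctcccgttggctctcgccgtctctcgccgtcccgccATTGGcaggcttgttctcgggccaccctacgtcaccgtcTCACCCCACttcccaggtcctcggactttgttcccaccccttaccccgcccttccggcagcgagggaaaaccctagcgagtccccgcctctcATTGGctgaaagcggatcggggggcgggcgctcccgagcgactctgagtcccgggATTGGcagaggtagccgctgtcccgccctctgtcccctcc
Acly (chr11:100527951-100528250, minus strand): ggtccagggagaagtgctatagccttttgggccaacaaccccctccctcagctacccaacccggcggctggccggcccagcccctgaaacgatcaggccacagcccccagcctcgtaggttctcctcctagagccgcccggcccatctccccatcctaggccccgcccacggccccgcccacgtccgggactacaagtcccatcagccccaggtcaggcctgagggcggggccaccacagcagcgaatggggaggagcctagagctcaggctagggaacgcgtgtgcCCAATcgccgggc
Acss2 (chr2:155517793-155518092, plus strand): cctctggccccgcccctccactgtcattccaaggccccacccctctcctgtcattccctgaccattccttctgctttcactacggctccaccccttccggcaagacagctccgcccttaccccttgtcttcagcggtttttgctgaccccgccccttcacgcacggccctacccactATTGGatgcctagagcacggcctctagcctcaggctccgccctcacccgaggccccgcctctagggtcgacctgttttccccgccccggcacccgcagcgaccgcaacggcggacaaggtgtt

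Nsdhl held 4 boxes and Hmgcs1 4 boxes with 1 SREBP site, whereas Insig1, Acly and Acss2 held 1 box each. A window of Mlxipl, a lipogenesis gene also called higher, held 1 SREBP site and no box and is not printed. Dhcr7, with 3 promoters in the table, held a box in the last of them only, and Acat2, an acetoacetyl-CoA thiolase, was the one among the 12 with no box in its window. Hmgcs1, the synthase that feeds the mevalonate pathway, was at 21.3, 28.2, 23.8, 23.2 and 27.7 CPM in REL, against 19.1, 17.3, 18.5, 18.5 and 20.1 CPM in WLM. These groups did not overlap, and its change of 0.41 ± 0.08 (adjusted p = 0.00464) was smaller than that of Nsdhl or Insig1, so the number of boxes did not order the sizes of these changes.

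**Figure D2:**
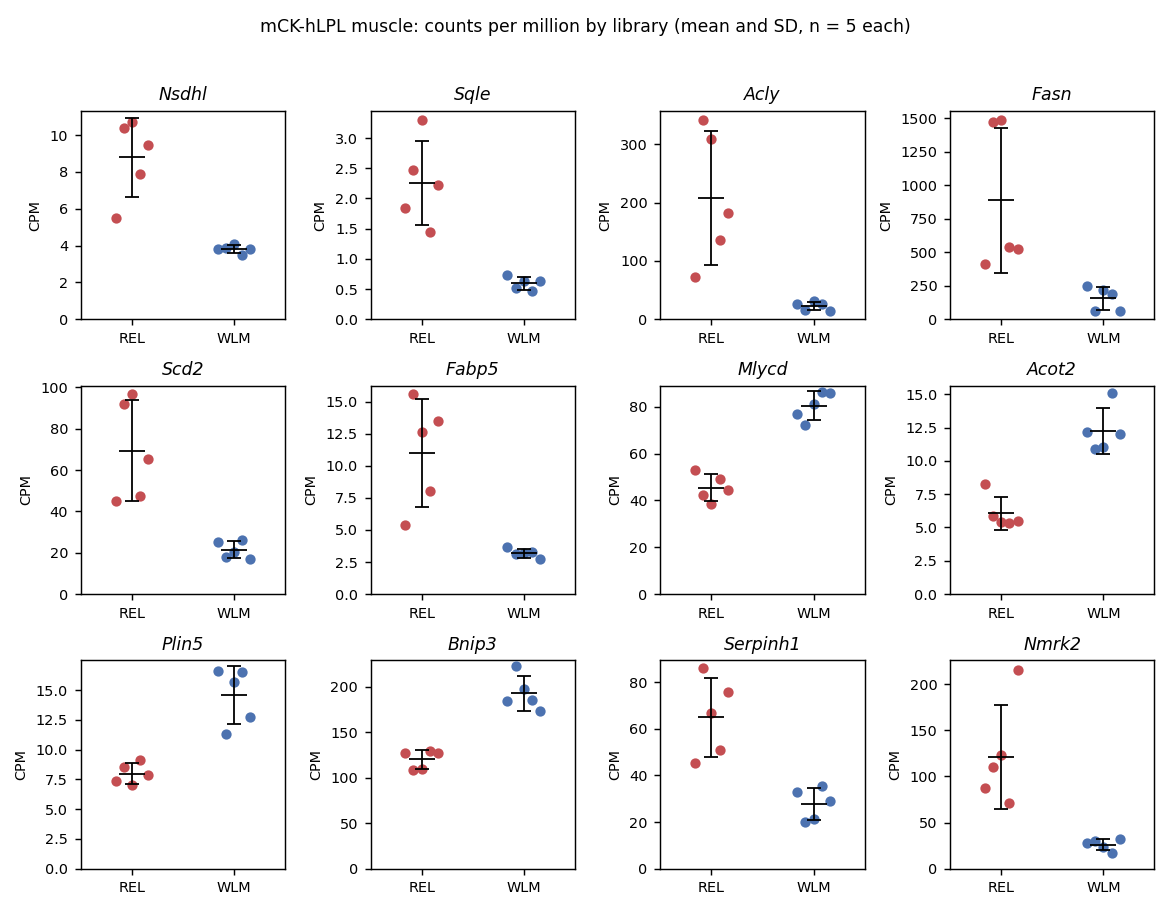
CPM of 12 genes in each mCK-hLPL library, REL on the left in red and WLM on the right in blue; bars give the mean and SD of 5 libraries and each axis starts at 0. REL lies above WLM for Nsdhl, Sqle, Acly, Fasn, Scd2, Fabp5, Serpinh1 and Nmrk2 and below it for Mlycd, Acot2, Plin5 and Bnip3, with no overlap in any of the 12.

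Many of the genes of fatty acid synthesis rose. Of 16 tested genes of de novo lipogenesis, 9 rose and 1 fell (median 0.46). The fall was Me3, a mitochondrial malic enzyme, with a change of -0.29 ± 0.09 (adjusted p = 0.0471). Me3 lost its call without REL 1, REL 2, REL 3, REL 5, WLM 2, WLM 3, WLM 5, WT_REL 1, WT_REL 2, WT_REL A, WT_REL B, WT_WLM 1, WT_WLM 2, WT_WLM 3 or WT_WLM 4 (adjusted p up to 0.146). Rises numbered 7 without the libraries richest in lymph node transcripts and 8 without those richest in liver transcripts. Acly, which splits citrate into the acetyl-CoA used for synthesis (chromosome 11, 100476353 to 100528000, minus strand), was at 71.8, 341, 309, 137 and 182 CPM in REL, against 26.7, 16, 30.7, 26.5 and 14.7 CPM in WLM. No REL library overlapped WLM, and the change was 3.18 ± 0.42 (adjusted p = 0.000341). Slc25a1, the carrier that exports that citrate from mitochondria, was at 20.6, 81, 64, 30.6 and 50.9 CPM in REL, against 13.8, 5.76, 14.7, 12.8 and 6.19 CPM in WLM, a change of 2.22 ± 0.38 (adjusted p = 0.00215). Acss2, which makes acetyl-CoA from acetate, rose by 1.25 ± 0.17 (adjusted p = 0.000349). Acaca, the carboxylase that commits acetyl-CoA to synthesis, rose by 1.83 ± 0.39 (adjusted p = 0.00861), and Fasn, the synthase, was at 412, 1471, 1483, 541 and 524 CPM in REL, against 249, 65.4, 219, 186 and 61.6 CPM in WLM, a change of 2.50 ± 0.52 (adjusted p = 0.00741). Fasn was highest in REL 2 and REL 3 and lowest in WLM 2 and WLM 5, yet the lowest REL value stayed above the highest WLM value.

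Genes for reducing power and for the later steps rose as well. Of 13 genes for NADPH and the pentose phosphate path, 5 rose and none fell: Pgd, phosphogluconate dehydrogenase, by 1.61 ± 0.23 (adjusted p = 0.000652), Tkt, transketolase, by 2.15 ± 0.39 (adjusted p = 0.00316), Rpe by 0.42, Taldo1 by 0.40 and G6pdx, the entry enzyme, by 1.07 (adjusted p = 0.0132). Rises numbered 3 without the libraries richest in liver transcripts, and falls 2 without REL 1 and 1 without WT_WLM 1 or WT_WLM 5. Of 17 genes of elongation and desaturation, 7 rose and none fell (median 0.71). Scd2, a stearoyl-CoA desaturase, was at 45.1, 92.1, 96.8, 47.7 and 65.6 CPM in REL, against 25.3, 18.1, 20.1, 26.1 and 17.2 CPM in WLM, a change of 1.70 ± 0.22 (adjusted p = 0.000294) with no overlap. Elovl6, which lengthens palmitate, rose by 2.65 ± 0.53 (adjusted p = 0.00558), Fads2, a polyunsaturated fatty acid desaturase, by 1.21 ± 0.23 (adjusted p = 0.0038), and Hsd17b12, an elongation reductase, by 1.29 ± 0.21 (adjusted p = 0.00153). Scd1, another stearoyl-CoA desaturase, was at 1191, 3303, 3304, 1388 and 1725 CPM in REL, against 1266, 459, 1008, 901 and 508 CPM in WLM. Its REL and WLM values overlapped, and its change was 1.40 ± 0.37 (adjusted p = 0.0271). Scd1 lost its call without REL 2, REL 3, WLM 2 or WLM 5 (adjusted p up to 0.0795).

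Fat cells also make these transcripts. None of 12 fat cell markers was called, although 10 had a positive change and 2 a negative change (median 0.23). Their summed level overlapped, at 1578 to 2249 CPM in REL and 1582 to 2350 CPM in WLM. Marker calls numbered 2 without REL 4 or WLM 1 and 3 without REL 1, all higher. Adipoq, the adipocyte hormone adiponectin, was at 30.02, 59.5, 50.6, 32.1 and 51 CPM in REL, against 60.9, 26.9, 46, 45.1 and 23 CPM in WLM. Within each group the marker sum and Fasn were highest in the same libraries, REL 2 and REL 3 in one group and WLM 1 and WLM 3 in the other. The part of fat cells in the spread of lipogenic transcripts within the groups was not tested.

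Genes that build and coat stored fat moved in both directions. Of 20 triglyceride synthesis genes, 6 rose and none fell. Agpat2, which adds the second acyl chain, was at 19.3, 64.4, 56, 29 and 49 CPM in REL, against 14.5, 7.90, 12.7, 9.31 and 7.52 CPM in WLM, and its change was 2.07 ± 0.30 (adjusted p = 0.000703). Mogat2, a monoacylglycerol acyltransferase, was at 0.327, 1.55, 0.436, 0.462 and 0.776 CPM in REL, against 0.0886, 0.0257, 0, 0.0487 and 0 CPM in WLM. It was near or at no count in WLM, where 3 counts correspond to 0.0633 to 0.0772 CPM, and its change of 4.35 ± 0.70 (adjusted p = 0.00153) rests on low counts. Lpin3, a phosphatidate phosphatase, rose by 0.78 ± 0.15 (adjusted p = 0.00543) and Bscl2, seipin of droplet assembly, by 0.53 ± 0.11 (adjusted p = 0.00769).

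Of 15 droplet coat and lipolysis genes, 1 rose and 3 fell. Plin2, the coat protein of newly formed droplets, was at 24.5, 58.7, 49.4, 32.3 and 45.9 CPM in REL, against 24.2, 17.8, 19.4, 25.3 and 24.7 CPM in WLM. REL 1 overlapped the WLM range and the other REL libraries lay above it, for a change of 0.92 ± 0.19 (adjusted p = 0.00705). Plin5, which ties droplets to mitochondria in oxidative tissue, was at 7.35, 8.55, 7.01, 9.16 and 7.88 CPM in REL, against 16.6, 11.3, 15.7, 16.5 and 12.8 CPM in WLM, a fall with no overlap and a change of -0.87 ± 0.16 (adjusted p = 0.00305). Plin4 fell likewise, with a change of -0.93 ± 0.20 (adjusted p = 0.00911), and Pnpla2, adipose triglyceride lipase, had a change of -0.49 ± 0.13 (adjusted p = 0.0285). Pnpla2 lost its call without REL 3, REL 5, WLM 1 or WLM 4 (adjusted p up to 0.061). The rise of Plin2 beside the falls of Plin4 and Plin5 held without any 1 library, and rises in the list numbered 2 without REL 1, REL 4 or WLM 1.

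The mouse transcript of lipoprotein lipase itself was not called. Lpl was at 692, 941, 810.3, 729.7 and 869.9 CPM in REL, against 815, 675, 773, 737 and 649 CPM in WLM, with overlapping groups and a change of 0.15 ± 0.12 (adjusted p = 0.478); the human transgene has no row of its own, and whether its reads fall on the mouse row is not given in the sources used here. Of 14 genes of lipase handling 1 rose and 1 fell, beside the 4.11% and 4.03% of all genes tested. Rises numbered 2 without REL 1. Angptl8, a secreted inhibitor of the enzyme that food induces, was at 0.252, 1.72, 1.62, 0.783 and 1.65 CPM in REL, against 0.111, 0.129, 0.0684, 0.0487 and 0.0211 CPM in WLM, a change of 3.98 ± 0.64 (adjusted p = 0.00153) at low levels. Vldlr, a receptor for triglyceride-rich particles, had a change of -0.57 ± 0.14 (adjusted p = 0.0197). Vldlr lost its call without WLM 5 (adjusted p up to 0.0607). Among 14 genes of fatty acid uptake and activation, 2 rose and 4 fell. Fabp5, a fatty acid binding protein, was at 5.39, 15.6, 12.6, 8.01 and 13.5 CPM in REL, against 3.70, 3.09, 3.21, 3.29 and 2.72 CPM in WLM, and its change was 1.79 ± 0.24 (adjusted p = 0.000349). Fabp3, the heart and muscle form, went the other way at 263, 254, 192, 231 and 302 CPM in REL, against 388, 372, 365, 409.9 and 364 CPM in WLM, a change of -0.61 ± 0.13 (adjusted p = 0.00781). Acsl3, an acyl-CoA synthetase, fell by 0.91 ± 0.17 (adjusted p = 0.00434) and Slc27a1, a transport protein of muscle, by 0.56 ± 0.12 (adjusted p = 0.00967). Cd36, the main muscle uptake protein, had a change of -0.37 ± 0.10 (adjusted p = 0.0353). Cd36 lost its call without REL 1, REL 3, REL 4, REL 5, WLM 1, WLM 3 or WLM 4 (adjusted p up to 0.0769). Rises in uptake genes numbered 1 without REL 2, REL 3, REL 5, WLM 2, WLM 3 or WLM 5.

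Genes of fatty acid oxidation that passed the test were lower in REL under TMM scaling. Of 30 tested members, 11 fell and none rose (median -0.26). Mlycd, which removes malonyl-CoA, the inhibitor of fatty acid entry into mitochondria, was at 53.1, 42.2, 38.4, 49.4 and 44.4 CPM in REL, against 76.9, 72.1, 81.3, 86.3 and 86.1 CPM in WLM. The REL values all lay below the WLM values, and the change was -0.82 ± 0.10 (adjusted p = 0.000164). Hadhb, a subunit of the trifunctional oxidation enzyme, had a change of -0.42 ± 0.08 (adjusted p = 0.00494) and Etfa, which takes up electrons from the dehydrogenases, one of -0.32 ± 0.07 (adjusted p = 0.00727), each with no overlap. Cpt1b, the muscle carnitine transferase, had a change of -0.29 ± 0.09 (adjusted p = 0.0469). Cpt1b lost its call without REL 2, REL 3, REL 5, WLM 1, WLM 2, WLM 3, WLM 4, WLM 5, WT_REL 1, WT_REL 2, WT_REL A, WT_WLM 1, WT_WLM 2, WT_WLM 3, WT_WLM 4 or WT_WLM 5 (adjusted p up to 0.137). The count of falls was 3 without REL 3 or WLM 5, 4 without REL 2 or WLM 3 and 7 without WLM 2 or WLM 4; it was 4 without the libraries richest in lymph node transcripts, 15 without those richest in liver transcripts, and 1 with total counts alone. Total counts alone also gave 2 rises in this list, with a median of -0.04.

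Further mitochondrial genes fell in smaller shares of their lists. Acot2, a mitochondrial acyl-CoA thioesterase, was at 8.26, 5.84, 5.38, 5.34 and 5.47 CPM in REL, against 12.2, 10.9, 11, 15.1 and 12 CPM in WLM, a change of -1.02 ± 0.14 (adjusted p = 0.000683), and its near-identical cytosolic copy Acot1 had a change of -0.99 ± 0.16 (adjusted p = 0.00174), so their reads may be split with error. Slc25a34, a mitochondrial carrier, was at 8.49, 6.92, 4.29, 6.15 and 5.61 CPM in REL, against 17.3, 12.7, 17, 14.2 and 16.2 CPM in WLM, a change of -1.30 ± 0.18 (adjusted p = 0.000397). Of 14 genes of the pyruvate dehydrogenase complex and its kinases, 3 fell and none rose, among them Dld, the shared dihydrolipoamide dehydrogenase, with a change of -0.42 ± 0.09 (adjusted p = 0.00781). Pdk4, the kinase that shuts the complex in fasting, was at 317, 360.3, 219.98, 657 and 252 CPM in REL, against 746, 537, 565, 1019.9 and 711 CPM in WLM. Its change of -0.99 ± 0.35 (adjusted p = 0.086) did not pass, and REL 4 lay among the WLM values. Of 24 genes of branched-chain amino acid and ketone use, 7 fell and none rose, led by Aldh6a1 with a change of -0.45 ± 0.08 (adjusted p = 0.00326) and Bckdha, of the rate-limiting dehydrogenase, with a change of -0.45 ± 0.08 (adjusted p = 0.00344). Counts of falls were 1 without REL 2, REL 3, REL 5, WLM 2, WLM 3 or WLM 5 and 5 without REL 1 for the dehydrogenase list and 2 without REL 2 or WLM 3 and 4 without REL 3 or WLM 2 for the amino acid list, whose median was -0.21 here and 0.01 with total counts alone. Without the libraries richest in lymph node transcripts these counts were 1 and 2. Total counts alone gave 3 rises and 1 fall in the dehydrogenase list and no call in the amino acid list.

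Some transcripts of the mitochondrial genome itself were lower. Of 15 tested transcripts, 5 fell and none rose (median -0.42), and their sum did not overlap, at 165980 to 189526 CPM in REL and 203985 to 285071 CPM in WLM. As a share of all counts, without TMM scaling, they took 18.4 to 21.3% in REL and 19.6 to 25.6% in WLM, and these ranges overlapped, with REL 2 above WLM 3 and WLM 5. mt-Co1, a cytochrome oxidase subunit, was at 35182, 32183, 31514, 34182 and 26269.7 CPM in REL, against 44949, 49405, 49722, 57957 and 48610.1 CPM in WLM, a change of -0.65 ± 0.14 (adjusted p = 0.00851). mt-Cytb, of the bc1 complex, had a change of -0.62 ± 0.13 (adjusted p = 0.00809) and mt-Nd4, of complex I, one of -0.82 ± 0.20 (adjusted p = 0.02). mt-Nd4 lost its call without REL 5 (adjusted p up to 0.0504). Of 40 nuclear-encoded respiratory chain subunits only Ndufs1 was called, with a change of -0.36 ± 0.07 (adjusted p = 0.00487), and the count was 3 without REL 5 and 9 without the 3 libraries richest in liver transcripts. Falls in the mitochondrial list numbered 3 without REL 5. Leaving all mitochondrially encoded rows out of the scaling gave 1390 calls in place of 1387.

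Genes of glucose and glycogen use changed in part. Of 31 genes of uptake and glycolysis, 5 rose and 2 fell, with a median of -0.12 that became 0.10 with total counts alone. Eno1, the non-muscle enolase, rose by 0.53 ± 0.12 (adjusted p = 0.012), whereas Slc2a4, the insulin-regulated transporter, had a change of -0.12 (adjusted p = 0.487) and Hk2, the hexokinase of muscle, one of -0.16 (adjusted p = 0.385). Slc2a5, the fructose transporter, was at 0.428, 3.31, 2.47, 1.27 and 1.06 CPM in REL, against 0.288, 0.0257, 0.365, 0.171 and 0.0422 CPM in WLM, a change of 3.24 ± 0.75 (adjusted p = 0.0133) at low levels. Pfkfb3, which makes the activator of phosphofructokinase, was at 223, 254, 402, 173 and 206 CPM in REL, against 93.1, 209.8, 113, 57.9 and 137 CPM in WLM. WLM 2 overlapped the REL range, and the change was 1.04 ± 0.29 (adjusted p = 0.0359). Pfkfb3 lost its call without REL 2, REL 3, WLM 1, WLM 3, WLM 4 or WLM 5 (adjusted p up to 0.106). Of 22 glycogen genes, 2 rose and 5 fell: Ppp1r3b, which targets the phosphatase that activates glycogen synthase, rose by 1.09 ± 0.24 (adjusted p = 0.01), while another targeting subunit, Ppp1r3d, fell by 0.62 ± 0.14 (adjusted p = 0.0109) and Ugp2, which makes the glucose donor, had a change of -0.37 ± 0.09 (adjusted p = 0.0174). Ugp2 lost its call without REL 3 (adjusted p up to 0.0537). Rises in glycolysis numbered 2 without REL 2, WLM 3 or WLM 5 and 3 without REL 3 or WLM 2, and falls 0 without REL 2, REL 3, REL 5, WLM 2, WLM 3 or WLM 5, 1 without WLM 4 and 6 without REL 4, with 12 falls without the libraries richest in liver transcripts. Falls in glycogen genes numbered 2 without REL 2, REL 3, REL 5, WLM 3 or WLM 5, 3 without WLM 2 and 8 without REL 4, and rises 1 without REL 2, REL 3, WLM 2 or WLM 5. With total counts alone, 4 glycogen genes were called higher and 0 lower, and their median went from -0.23 to -0.007. The same scaling gave 9 rises and 0 falls in glycolysis.

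Transcripts of the fasted state fell unevenly. Of 26 FOXO targets and atrophy genes, 7 fell and 1 rose (median -0.41). Bnip3, a receptor for removal of mitochondria, was at 127, 108, 109.5, 129 and 127 CPM in REL, against 184, 223, 197, 185 and 174 CPM in WLM, a change of -0.68 ± 0.09 (adjusted p = 0.000294) with no overlap. Eif4ebp1, which blocks translation until mTORC1 releases it, was at 37, 33.3, 31.1, 45 and 33.5 CPM in REL, against 55.2, 62, 60.1, 59 and 52.2 CPM in WLM, a change of -0.68 ± 0.11 (adjusted p = 0.00174), and Fbxo31, of a ubiquitin ligase, fell by 0.64 ± 0.11 (adjusted p = 0.00215). Foxo6 rose by 0.89 ± 0.19 (adjusted p = 0.00785). The muscle ubiquitin ligases named for atrophy did not pass: Fbxo32 was at 111, 96.4, 94.4, 187 and 109 CPM in REL, against 182, 159, 186, 299 and 240.2 CPM in WLM, a change of -0.84 ± 0.28 (adjusted p = 0.071), and Trim63 had a change of -0.44 (adjusted p = 0.269). REL 4 held the highest REL value of both. Falls numbered 4 without REL 2, REL 3, REL 5, WLM 3 or WLM 4 and 11 without REL 4, and 3 without the libraries richest in lymph node transcripts.

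REL 4 also stood apart in glucocorticoid-responsive genes. Of 20 members 3 fell and none rose (median -0.31). Fkbp5, a receptor co-chaperone that glucocorticoids induce, was at 27.8, 24.7, 17.4, 75.2 and 26.3 CPM in REL, against 98.9, 69, 110.2, 130.4 and 43.8 CPM in WLM, a change of -1.40 ± 0.39 (adjusted p = 0.0345). REL 4, at 75.2 CPM, lay inside the WLM range, and the other REL libraries lay below every WLM library. Fkbp5 lost its call without REL 1, REL 2, REL 3, REL 5, WLM 3 or WLM 4 (adjusted p up to 0.0937). Falls in the list numbered 0 without REL 2, REL 3, REL 5, WLM 3 or WLM 4, 1 without REL 1, WLM 1 or WLM 2 and 6 without REL 4. Of 21 clock genes, 2 rose and 2 fell: Dbp, a clock output factor, rose by 0.75 ± 0.18 (adjusted p = 0.0172), Nr1d1, the clock repressor REV-ERB alpha, by 0.89, and Rora fell by 0.73 ± 0.14 (adjusted p = 0.00389). Nr1d1 lost its call without REL 3, WLM 3 or WLM 5 (adjusted p up to 0.0618). The time of day of sampling is not given in the labels, so refeeding and sampling time cannot be told apart for these genes. Clock rises numbered 1 without REL 3, WLM 3 or WLM 5 and falls 1 without REL 2, REL 3, REL 5, WLM 2, WLM 3 or WLM 5. Of all genes tested, 4.11% were called higher and 4.03% lower.

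Among insulin and mTORC1 genes 3 of 29 rose and 2 fell, beside the 4.11% and 4.03% of all genes tested. Trib1, a pseudokinase, rose by 0.54 ± 0.13 (adjusted p = 0.0144), and Igf1, the growth factor, had a change of 0.74 ± 0.21 (adjusted p = 0.0368). Igf1 lost its call without REL 2, REL 3, REL 5, WLM 2, WLM 3 or WLM 5 (adjusted p up to 0.112). Tbc1d1, which restrains glucose transporter traffic, had a change of -0.78 ± 0.20 (adjusted p = 0.0205). Tbc1d1 lost its call without REL 3 or WLM 4 (adjusted p up to 0.0575). Rises numbered 1 without REL 3, WLM 2 or WLM 3 and falls 1 without REL 3 or WLM 4.

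Some matrix genes were higher. Of 19 collagens, 5 rose and none fell (median 0.69). Col15a1, a basement membrane collagen, was at 24.4, 46.9, 34.2, 17.7 and 22.4 CPM in REL, against 17.3, 9.39, 8.16, 11.9 and 13.9 CPM in WLM, a change of 1.26 ± 0.24 (adjusted p = 0.00389) with no overlap. Col3a1, fibrillar collagen III, was at 116, 332, 149, 76.3 and 105 CPM in REL, against 84.6, 39.1, 30.2, 65.3 and 69.95 CPM in WLM. REL 2 stood far above the other REL libraries and REL 4 lay below WLM 1. The change was 1.43 ± 0.35 (adjusted p = 0.0183). Col3a1 lost its call without REL 2, WLM 2 or WLM 3 (adjusted p up to 0.0631). Collagen rises numbered 1 without REL 2, WLM 2 or WLM 3 and 3 without REL 3 or WLM 5; there was 1 without the libraries richest in lymph node transcripts and 10 without those richest in liver transcripts. Of 20 genes that fold and cross-link collagen, 3 rose and none fell. Serpinh1, the collagen chaperone HSP47, was at 45.4, 86, 66.9, 51 and 75.7 CPM in REL, against 32.7, 19.997, 21.1, 35.6 and 29 CPM in WLM, a change of 1.23 ± 0.20 (adjusted p = 0.00154), and Sparc, a collagen-binding matrix protein, rose by 0.82 ± 0.15 (adjusted p = 0.00389). None of 13 fibroblast markers was called, although all 13 had a positive change (median 0.43), 1 was called without REL 1, REL 4, WLM 4 or WT_WLM 4, and 2 without WLM 1. The sum of all 14 fibroblast markers, tested or not, overlapped, at 1486 to 2064 CPM in REL and 1003 to 2099 CPM in WLM. Their part in the collagen change was not tested.

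Genes that assemble N-glycans, a list added after the data were seen, rose in 6 of 32 cases and fell in none, with a count of 22 rises under total counts alone. Alg3, a mannosyltransferase that builds the precursor glycan in the endoplasmic reticulum, was at 9.39, 9.87, 10.8, 11.2 and 9.39 CPM in REL, against 6.98, 6.79, 5.74, 5.90 and 7.05 CPM in WLM, a change of 0.64 ± 0.08 (adjusted p = 0.000287) with no overlap. Alg9, a later mannosyltransferase, rose by 0.49 ± 0.08 (adjusted p = 0.00134) and Rpn2, of the transferring complex, by 0.33 ± 0.07 (adjusted p = 0.00781). Of 23 chaperones of the endoplasmic reticulum 2 rose, beside the 4.11% of all genes tested that were called higher. The rises were Pdia6, by 0.37 ± 0.07 (adjusted p = 0.00558), and Creld2, by 0.35. Creld2 lost its call without REL 2, REL 5, WLM 2 or WLM 3 (adjusted p up to 0.0755), and the chaperone count was 1 without REL 2, REL 5, WLM 2 or WLM 3, 4 without WT_WLM 4 and 5 without WLM 4.

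Some cytoskeletal genes rose and many sarcomere genes fell. Of 21 actin and tubulin genes, also a list added after the data were seen, 7 rose and none fell (median 0.43). Tuba1a, an alpha tubulin with near-identical copies, was at 58.7, 111, 74.8, 52.5 and 95.3 CPM in REL, against 37.2, 22.8, 24.1, 40.3 and 28.2 CPM in WLM, a change of 1.36 ± 0.21 (adjusted p = 0.00131) with no overlap, and Tubb5, a beta tubulin, rose by 0.65 ± 0.11 (adjusted p = 0.00228). Rises numbered 3 without REL 2 or WLM 5 and 4 without WLM 2 or WLM 3. The summed level of all 22 list members, tested or not, overlapped and did not share that direction. It was 27469 to 33032 CPM (median 27770) in REL and 28150 to 31938 CPM (median 30971) in WLM. Of 33 genes of the sarcomere scaffold, added at the same time, 16 fell and none rose (median -0.45, or -0.22 with total counts alone, where 5 fell and 3 rose). Myom1, myomesin of the M line, was at 904, 716, 866, 972 and 722 CPM in REL, against 1002, 1154, 1238, 1213 and 1191 CPM in WLM, a change of -0.47 ± 0.10 (adjusted p = 0.00951) with no overlap. Tcap, telethonin of the Z disc, was at 2035, 1707, 1641, 2370.4 and 2079.8 CPM in REL, against 2814, 3313, 3101, 2715 and 2816 CPM in WLM, a change of -0.59 ± 0.13 (adjusted p = 0.0118). Actn3, the fast-fibre actinin of the Z disc, was at 6783, 5911, 7532, 10199.7 and 7025 CPM in REL, against 9089.96, 12991, 12399, 9418 and 10405 CPM in WLM. REL 4 lay above WLM 1 and WLM 4, and the change was -0.54 ± 0.14 (adjusted p = 0.0296). Actn3 lost its call without REL 1, REL 2, REL 3, REL 5, WLM 2, WLM 3 or WLM 5 (adjusted p up to 0.0935). Falls numbered 5 without WLM 3, 6 without WLM 5, 7 without REL 2 or REL 5, 8 without REL 3 or WLM 2 and 10 without WLM 4, with 5 without the libraries richest in lymph node transcripts and 11 without those richest in liver transcripts. The scaffold sum did not overlap, at 52942 to 67191 CPM in REL and 70102 to 93493 CPM in WLM.

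Fibre type genes fell in 4 of 24 cases and rose in none, with a median of -0.22 that came to -0.01 with total counts alone. Their falls numbered 1 without REL 2, REL 3, REL 5, WLM 3 or WLM 5 and 2 without WLM 1, WLM 2, WLM 4, WT_REL 1, WT_REL 2, WT_REL A, WT_WLM 2, WT_WLM 3 or WT_WLM 4. Of 17 genes of the acetylcholine receptor and synapse, 3 fell and none rose, while 12 had a positive change (median 0.09). Total counts alone gave 4 rises and 2 falls in this list. Prima1, the membrane anchor of acetylcholinesterase, was at 3.07, 2.50, 2.25, 6.27 and 3.22 CPM in REL, against 8.06, 7.18, 7.02, 12.5 and 9.35 CPM in WLM, a change of -1.35 ± 0.29 (adjusted p = 0.00911); the groups did not overlap, and REL 4 was the nearest to WLM. Chrna2, a nicotinic receptor subunit, had a change of -1.81 ± 0.41 (adjusted p = 0.0115), with no REL library above 0.182 CPM. Dok7, which clusters receptors, had a change of -0.47 ± 0.13 (adjusted p = 0.0305). Dok7 lost its call without REL 2, REL 3, REL 5, WLM 1 or WLM 3 (adjusted p up to 0.0903). Of 22 myogenic genes, Cdh15, muscle cadherin, had a change of -0.54 ± 0.10 (adjusted p = 0.00456) and Myod1, the myogenic factor, one of -0.69 ± 0.16 (adjusted p = 0.0155), and no other was called, with 4 falls without REL 4. These 2 falls stand beside the 4.03% of all genes tested that were called lower.

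**Figure D3:**
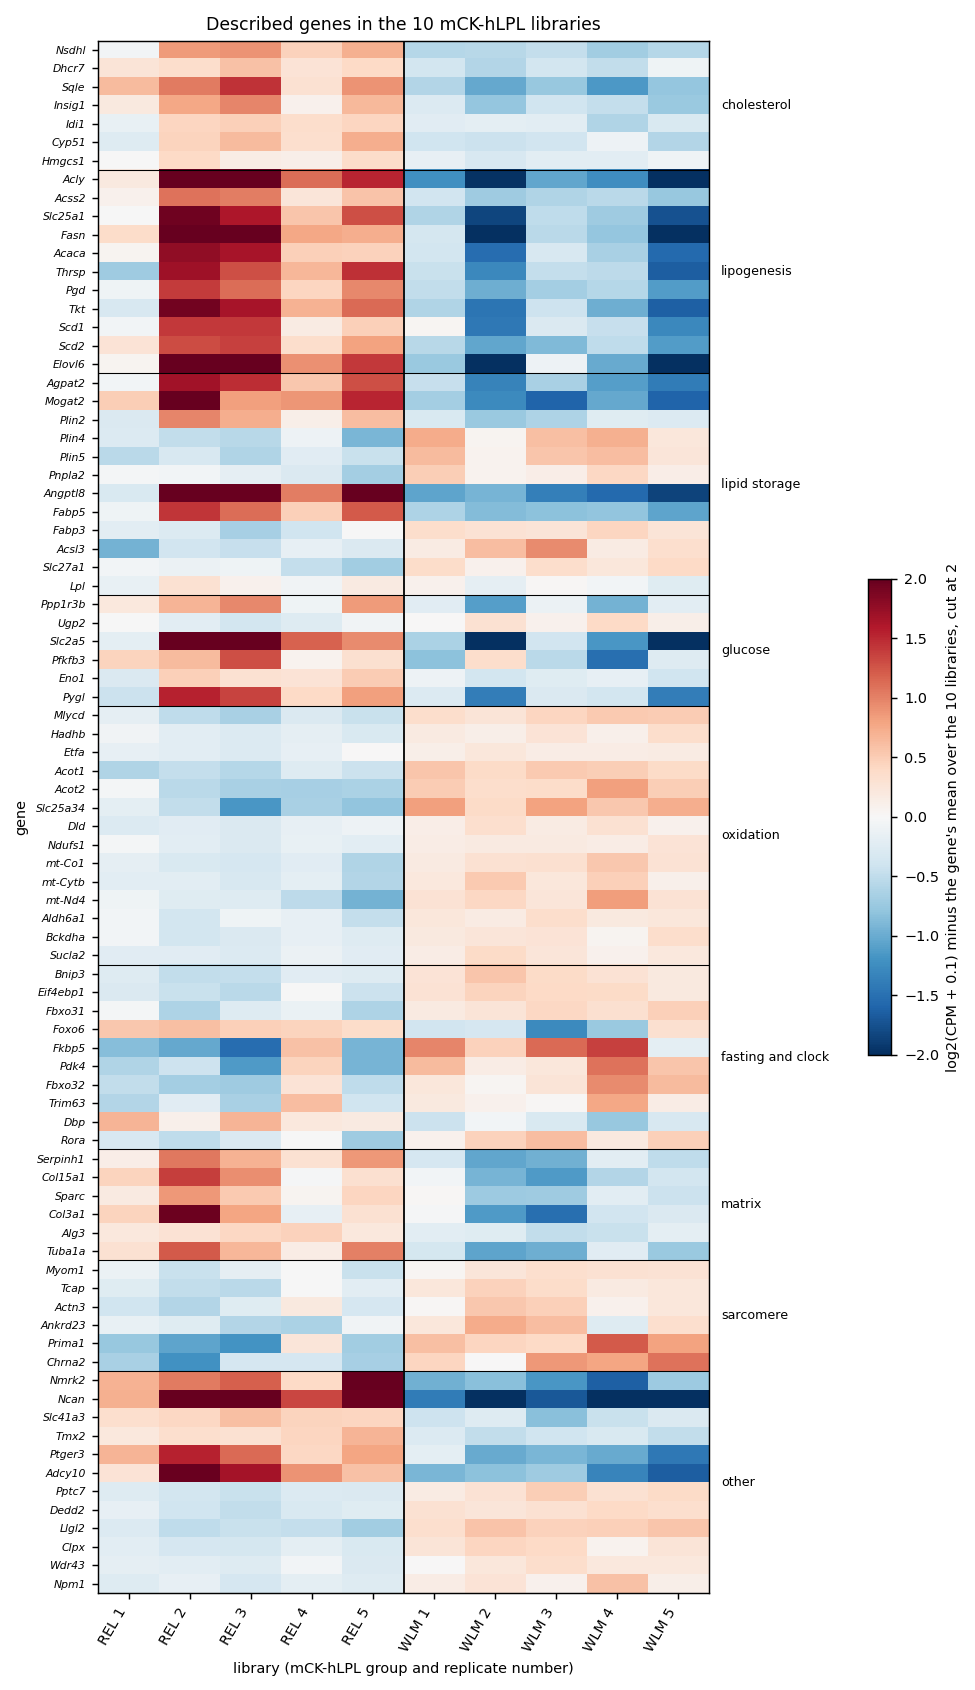
Level of a selection of the described genes in the 10 mCK-hLPL libraries, as log2(CPM + 0.1) minus the gene's mean over the 10, with colours cut at 2; REL libraries stand left of the line and WLM libraries right of it. Most lipogenic genes are strongest in REL 2 and REL 3 and weakest among REL in REL 1, while Fkbp5, Pdk4, Fbxo32 and Trim63 in REL 4 have the colour of WLM libraries.

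The smallest p-values belonged to genes outside these pathways as well. Ncan, neurocan, a proteoglycan known from brain matrix (chromosome 8, 70093085 to 70120873, minus strand), was at 2.62, 14.3, 11.1, 4.08 and 6.33 CPM in REL, against 0.531, 0.180, 0.410, 0.317 and 0.253 CPM in WLM. Each REL library lay above every WLM library, and the change was 4.49 ± 0.45 (adjusted p = 6.20e-05). Slc41a3, of a family of magnesium transporters, was at 42.4, 44.5, 51, 45.6 and 45.1 CPM in REL, against 25.1, 28.1, 18.7, 24.5 and 27.3 CPM in WLM, a change of 0.89 ± 0.09 (adjusted p = 6.20e-05) with no overlap and little spread. Tmx2, a thioredoxin-related membrane protein, rose by 0.79 ± 0.09 (adjusted p = 9.33e-05), and Ptger3, a prostaglandin E2 receptor, by 1.86 ± 0.24 (adjusted p = 0.000294). Nmrk2, the muscle kinase of nicotinamide riboside in NAD synthesis, was at 87, 110.1, 123, 71.1 and 216 CPM in REL, against 27.5, 29.98, 23.8, 17.3 and 32.3 CPM in WLM, a change of 2.21 ± 0.35 (adjusted p = 0.00148). Adcy10, soluble adenylyl cyclase, was at 0.277, 1.13, 0.890, 0.482 and 0.367 CPM in REL, against 0.0664, 0.0772, 0.0912, 0.0244 and 0 CPM in WLM, with 1 WLM library at no count and a change of 3.56 ± 0.57 (adjusted p = 0.00148). Of 15 genes of NAD synthesis and use, 4 rose and 1 fell, with rises numbering 2 without REL 3, REL 5, WLM 2, WLM 3 or WLM 5 and falls 0 without REL 2, REL 3, REL 5, WLM 2, WLM 3 or WLM 5 and 2 without REL 4 or WLM 1.

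Among the falls of smallest p, Pptc7, a mitochondrial protein phosphatase (chromosome 5, 122284365 to 122324281, plus strand), was at 76.5, 70.4, 66.9, 74.9 and 74.7 CPM in REL, against 102, 111, 129, 112 and 119 CPM in WLM, a change of -0.66 ± 0.07 (adjusted p = 9.33e-05) with no overlap. Dedd2, a death effector domain protein, was at 8.06, 6.88, 6.41, 7.37 and 7.67 CPM in REL, against 11.2, 10.8, 11.3, 12 and 11.5 CPM in WLM, a change of -0.64 ± 0.07 (adjusted p = 0.000112). Llgl2, a cell polarity protein, fell by 0.97 ± 0.13 (adjusted p = 0.000294), Clpx, the unfoldase of a mitochondrial protease, by 0.57 ± 0.08 (adjusted p = 0.000703), Bclaf1 and Thrap3, related RNA-processing factors, by 0.55 ± 0.07 (adjusted p = 0.000294) and 0.41 ± 0.06 (adjusted p = 0.000847), and Mios, of the complex that signals amino acids to mTORC1, by 0.39 ± 0.06 (adjusted p = 0.000946). Of 33 ribosome biogenesis genes, 7 fell and none rose (median -0.13, or 0.09 with total counts alone), among them Wdr43 with a change of -0.40 ± 0.07 (adjusted p = 0.00228), Npm1, nucleophosmin, with a change of -0.49 ± 0.12 (adjusted p = 0.0151) and Ncl, nucleolin, with a change of -0.34 ± 0.07 (adjusted p = 0.00438). These named falls held without any 1 library. With total counts alone, however, 6 ribosome biogenesis genes were called higher and 1 lower.

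A few further metabolic genes moved singly. Of 20 citric acid cycle genes, 4 fell and 1 rose, with a median of -0.14 that became 0.07 with total counts alone. Sucla2, of succinyl-CoA ligase, was at 229.95, 229, 222, 247 and 229 CPM in REL, against 298, 349.9, 317, 284 and 312 CPM in WLM, a change of -0.43 ± 0.08 (adjusted p = 0.00344) with no overlap. Pcx, pyruvate carboxylase, had a change of 0.79 ± 0.20 (adjusted p = 0.0235). Pcx lost its call without REL 2, REL 3, WLM 2 or WLM 5 (adjusted p up to 0.0753). Falls in the cycle numbered 1 without REL 2, REL 3, WLM 2, WLM 3, WLM 5, WT_REL 1 or WT_REL A and 2 without REL 1, REL 5, WLM 4, WT_REL 2, WT_WLM 2, WT_WLM 3 or WT_WLM 4. Total counts alone gave 3 rises and 1 fall in the cycle. Atf5, a stress response factor, was at 68.2, 75.2, 79.9, 66 and 65.8 CPM in REL, against 39.6, 42.8, 39.1, 44.8 and 59.2 CPM in WLM, a change of 0.65 ± 0.11 (adjusted p = 0.00209) with no overlap. Gatm, the first enzyme of creatine synthesis, rose by 0.81 ± 0.15 (adjusted p = 0.00389), Ccnd1, cyclin D1, by 1.28 ± 0.27 (adjusted p = 0.00785), and Pde4d, a cyclic AMP phosphodiesterase, fell by 0.68 ± 0.14 (adjusted p = 0.00868). The calls of Sucla2, Atf5, Gatm, Ccnd1 and Pde4d held without any 1 library.

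Several lists showed no call. None of 43 ribosomal proteins (median 0.01), 31 proteasome subunits (median -0.07), 13 polyamine genes (median -0.07) or 36 interferon and antigen presentation genes (median 0.20) passed, and the proteasome and polyamine medians turned positive with total counts alone (0.15 and 0.14); at the unadjusted level 1, 7, 3 and 9 of them had p under 0.05. Without REL 4, 2 proteasome genes were called lower. Interferon genes had 1 rise without WT_REL 2 and 2 without WT_WLM 4, and polyamine genes 1 fall without WT_WLM 1. None of 14 macrophage markers was called (median 0.43), and 1 was without REL 4, WLM 1 or WT_WLM 4. Their sums were 158 to 324 CPM in REL and 95.2 to 235 CPM in WLM. Endothelial markers rose in 3 of 14, among them Tek, the angiopoietin receptor, by 0.44 ± 0.09 (adjusted p = 0.00883). Erythroid markers rose in 4 of 8 (median 1.68), led by Slc4a1, the red cell anion exchanger, with a change of 2.56 ± 0.60 (adjusted p = 0.0141), and numbered 2 without REL 1, WLM 2, WLM 3, WLM 4 or WLM 5 and 7 without REL 4, WLM 1 or WT_REL B. None was called without the libraries richest in lymph node transcripts. Of 15 liver markers Hp, haptoglobin, alone was called, with a change of 0.84 ± 0.20 (adjusted p = 0.0172). Hp lost its call without WLM 3 (adjusted p up to 0.0501), while 3 liver markers were called without REL 1 or WT_REL B.

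The refeeding difference in wild type was mostly of the same sign. In WT, 831 genes were called, 448 higher (2.63%) and 383 lower (2.25%), and the count was 325 without WT_REL 1, 378 without WT_REL 2, 257 without WT_REL B, 517 without WT_WLM 1 and 421 without WT_WLM 3. Of these, 518 were also called in mCK-hLPL, which is 37.3% of the mCK-hLPL calls and 62.3% of the WT calls, all with the same sign. Among the 1387 genes called in mCK-hLPL, 1371 had the same sign in WT and 16 the opposite. Over all genes tested the changes in mCK-hLPL and WT correlated with Pearson's r of 0.59 and Spearman's rho of 0.60, a description across genes, which are not independent replicates. Nsdhl had a change of 1.20 in mCK-hLPL and 1.13 ± 0.15 (adjusted p = 0.000529) in WT, Acly one of 3.18 in mCK-hLPL and 2.62 ± 0.42 (adjusted p = 0.00193) in WT, Mlycd one of -0.82 in mCK-hLPL and -0.94 ± 0.10 (adjusted p = 0.00012) in WT, and Ncan one of 4.49 in mCK-hLPL and 4.29 ± 0.46 (adjusted p = 7.45e-05) in WT.

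Whether the transgene altered the refeeding difference was tested by the interaction of genotype with phase. No gene was called (0% of genes tested; the smallest edgeR adjusted p was 0.9998), and 403 had an unadjusted p under 0.05, fewer than the 851 that make up 5% of genes tested. DESeq2 called 2, the predicted genes Gm12693 and Gm7666, each at 0 in every library of 1 group. Fasn had a change of 2.50 in mCK-hLPL and 1.53 ± 0.52 (adjusted p = 0.0952) in WT, called in mCK-hLPL and not in WT, yet its interaction had an unadjusted p of 0.194. Fabp5, with a change of 1.79 in mCK-hLPL and 1.04 in WT, had an unadjusted p of 0.0411, Slc25a34, with a change of -1.30 in mCK-hLPL and -1.92 in WT, of 0.0259, and mt-Co1, with a change of -0.65 in mCK-hLPL and -0.38 in WT, of 0.197. Among the 8 genes of smallest interaction p, Trim30a, of the interferon-induced TRIM family, had a change of 0.26 in mCK-hLPL and -0.42 in WT (unadjusted p of 0.00072), H2-Eb1, a class II antigen-presenting chain, one of 0.58 in mCK-hLPL and -1.29 in WT (unadjusted p of 0.00272), and Flrt3, a cell adhesion protein, one of 1.05 in mCK-hLPL and -0.20 in WT (unadjusted p of 0.00275). Of the 36 interferon and antigen presentation genes, 9 had an unadjusted interaction p under 0.05, beside the 403 of 17028 genes tested. In WT 4 of these 36 were called lower (median -0.33), against none called in mCK-hLPL (median 0.20). The B and T cell marker sum reached 96.3 CPM in WT_WLM, where its median was 17.4 CPM. Without the 3 libraries richest in lymph node transcripts, WT_WLM 1 and WT_WLM 5 among them, 220 genes had an unadjusted interaction p under 0.05. The part of lymph node transcripts in the differences of H2-Eb1 and the other antigen presentation genes was not tested. A p that misses the threshold does not show that the genotypes responded alike.

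**Figure D4:**
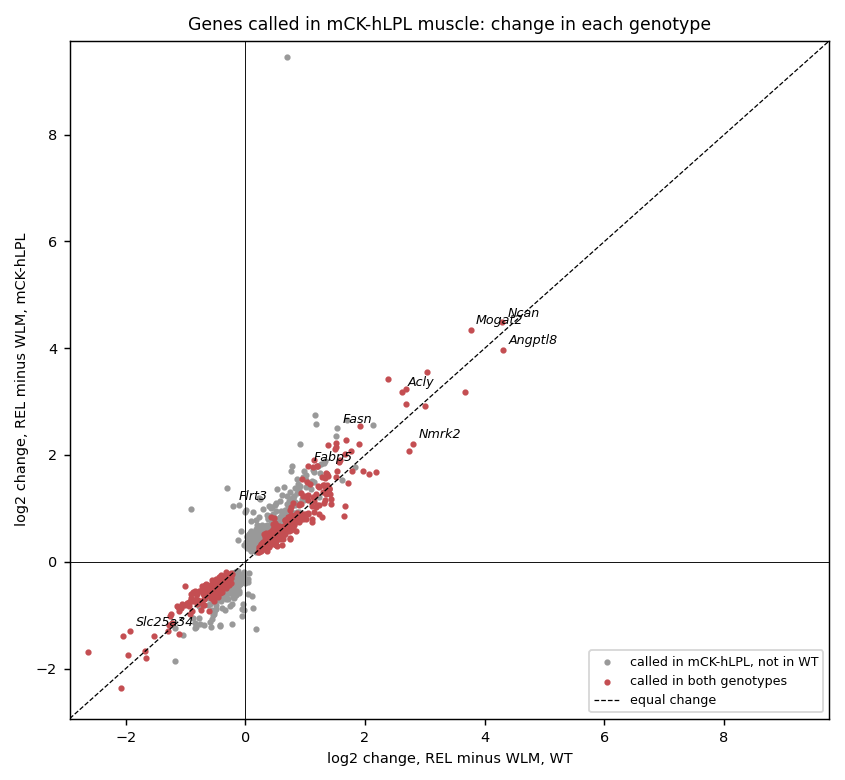
Log2 change of REL minus WLM in mCK-hLPL (vertical axis) against WT (horizontal axis) for the 1387 genes called in mCK-hLPL; red points were called in both genotypes, grey points in mCK-hLPL and not in WT, and the dashed line marks equal change. Points were chosen by the vertical axis, and the point at the top is Gm12693, a provisional gene with no count in any mCK-hLPL_WLM library.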

How the data were processed

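Gastrocnemius RNA of 19 FVB mouse libraries was sequenced. Per the labels' protocols, isolation used an RNeasy kit and library preparation a NuGEN Universal Plus mRNA protocol. The deposited table holds raw counts per gene symbol (54176 rows, 19 columns), made by the authors; per the submitters' processing notes Salmon 0.14.2 and DESeq2 1.28.1 were used with mm10 or GRCm38, with roles not given, and values are whole numbers that differ in total between libraries. Of the rows, 24 carry symbols turned into dates (0.0628% of counts) and stayed under that name.

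From these counts, edgeR 4.0.16 (R 4.3.3) kept genes by filterByExpr (17028 genes), scaled libraries by TMM and fitted 1 quasi-likelihood model of 4 group means (15 residual degrees of freedom), with 2-sided tests of the refeeding difference in mCK-hLPL, in WT and of their difference, adjusted by Benjamini-Hochberg over all genes tested. An SE is the log2 change divided by the square root of F. Groups came from sample titles. The procedure was tested on simulated data. Chi-square tests found no 2 libraries of a group within sampling noise of each other. Depth was 35595030 to 50558640 counts per mCK-hLPL library, and 3 counts corresponded to between 0.0528 and 0.0772 CPM; such limits cover counting error only. The replicate numbers mark no stated pairing, and the samples were treated as unpaired. Same-numbered mCK-hLPL libraries deviated from their group means with r between -0.15 and 0.17. With 5 such pairs these values cannot decide whether the samples were paired.

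The members and gene lists were chosen with earlier results of these data known. Named were, provisional symbols aside, the 12 called rises and 12 called falls of smallest p, the 8 rises and 8 falls of largest CPM difference, up to 6 called members of each list (or the 2 of smallest p), the 8 genes of smallest interaction p, and Lpl; not all are described, and Alb, Adipoq, Srebf1, Srebf2, Pdk4, Fbxo32, Trim63, Slc2a4, Hk2 and other examples outside that rule were added after values were seen. A further 3 lists (N-glycan, sarcomere scaffold, actin and tubulin) were added after the data were seen. Some results, 1 more added list among them, are not reported here. Promoters came from RefSeq on GRCm38.p6, and gene positions from GENCODE vM21 on GRCm38. Alternatives were other scalings (RLE, upper quartile, median centring, total counts), filters, DESeq2 1.42.0, limma 3.58.1 voom with library weights, a minimum change, fits of 2 groups, leaving out each library in turn, and a block for replicate numbers.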

Additional observations from a re-analysis of the deposited data

Results flagged for a closer look

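Among 280 sets of 5 values, each a described gene or a composition measure in REL or in WLM, 20 held 1 library whose gap to the nearest other exceeded Dixon's 95% critical value for 5 samples. Chance flags about 1 in 20 such sets, which is 14 sets here. By library, REL 4 gave 5 flags, REL 2 gave 4, REL 1 and WLM 4 gave 3 each, WLM 5 gave 2, and REL 3, WLM 1 and WLM 3 gave 1 each.

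REL 4 stood apart in genes of the fasted state and also in Prima1 and Ncl. Fkbp5 was at 75.2 CPM in REL 4, with 17.4 to 27.8 CPM in the other REL libraries. Fbxo32, the ubiquitin ligase atrogin-1, was at 187 CPM in REL 4, with 94.4 to 111 CPM in the other REL libraries, and Trim63, the ligase MuRF1, at 295 CPM in REL 4, with 123 to 164 CPM in the other REL libraries. Prima1 was at 6.27 CPM in REL 4, with 2.25 to 3.22 CPM in the other REL libraries, and Ncl at 149.7 CPM in REL 4, with 126 to 132 CPM in the other REL libraries. Without REL 4 the falls among glucocorticoid-responsive genes numbered 6 and those among FOXO targets 11.

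REL 2 was the high library for matrix and uptake genes and REL 3 for a regulator. Col3a1 was at 332 CPM in REL 2, with 76.3 to 149 CPM in the other REL libraries. Cd36 was at 277 CPM in REL 2, with 231 to 239.8 CPM in the other REL libraries, and Lpin3 at 4.54 CPM in REL 2, with 2.99 to 3.32 CPM in the other REL libraries. Mitochondrially encoded transcripts were at 21.3% of counts in REL 2, with 18.4 to 19.1% of counts in the other REL libraries. Srebf1 was at 81.9 CPM in REL 3, with 47.3 to 54.7 CPM in the other REL libraries.

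REL 1 differed in sterol, thioesterase and blood transcripts. Idi1 was at 8.01 CPM in REL 1, with 11.3 to 12.4 CPM in the other REL libraries, and Acot2 at 8.26 CPM in REL 1, with 5.34 to 5.84 CPM in the other REL libraries. Hemoglobin transcripts were at 11531 CPM in REL 1, with 1758 to 3917 CPM in the other REL libraries.

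In WLM, the lymph node marker sum was 81.2 CPM in WLM 3, with 13.7 to 18.4 CPM in the other WLM libraries. Hemoglobin transcripts were at 3078 CPM in WLM 1, with 863 to 1448 CPM in the other WLM libraries. mt-Nd4 was at 27313 CPM in WLM 4, with 18019 to 20367 CPM in the other WLM libraries, Trim63 at 329.8 CPM in WLM 4, with 196 to 219.9 CPM in the other WLM libraries, and Alb, albumin, at 20.9 CPM in WLM 4, with 0.952 to 5.72 CPM in the other WLM libraries. Ndufs1 was at 216 CPM in WLM 5, with 198 to 203 CPM in the other WLM libraries, and Atf5 at 59.2 CPM in WLM 5, with 39.1 to 44.8 CPM in the other WLM libraries. The causes of these values were not tested.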

How the results depend on the processing

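The count of 1387 genes called in mCK-hLPL was 1358 with RLE scaling, 1396 with upper quartile scaling, 1439 with the median of all genes set to 0, 1561 with a stricter filter, 2068 with DESeq2, 1687 with limma voom and library weights, and 1368 with robust moderation. It was 793 without filtering low counts, 42 when a log2 change beyond 0.5 was required, 628 in a fit of the 2 groups only, 3941 with total counts alone, 608 without the 3 libraries richest in lymph node transcripts and 1573 without the 3 richest in liver transcripts, of which 972 were shared with the 1387. Leaving out 1 library gave 674 to 1705. In WT, where 831 genes were called, the counts were 492 with no filter, 1385 with DESeq2, 1276 with voom, 22 with the minimum change, 1508 with total counts alone, 316 without the lymph node libraries, 462 without the liver libraries and 166 in the 17 numbered libraries, and 257 to 1027 with 1 library left out. The interaction had 0 calls throughout apart from 2 with DESeq2 (Gm12693 and Gm7666) and 1 without WT_WLM 4 (Gm14444), so leaving out 1 library gave 0 to 1. With the replicate number as a block, the replicate block gave 484 calls in mCK-hLPL and 32 in WT over the numbered libraries, and 48 in the mCK-hLPL groups alone; 1 of 5 REL libraries correlated best with its own number, and the numbers mark no stated pairing. Of 195 named genes that were called, 113 kept the call in all 19 fits that leave out 1 library and 13 under all 17 other settings. Gnl3, a nucleolar GTPase and a called list member outside these 195, reversed with total counts alone, with a log2 change of 0.019 (adjusted p = 0.852) in place of -0.20. The causes of these shifts were not tested, apart from the settings that by construction use fewer libraries or a larger minimum change. With 5 libraries a group and calls of median size 0.45, single libraries decide many calls near the threshold.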
